A study of Mus musculus with 5 samples.

Results

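The 36 genes described here encode the enzymes of glycolysis and lactate formation, the enzymes that regulate them, and the oxygen-sensing pathway with some of its target genes, as measured in regulatory T cells (Tregs). The genes were taken by symbol, and all 36 were found among the 24084 genes of the count table. They comprise 17 enzymes from hexokinase to lactate dehydrogenase, 6 kinases and phosphatases that steer sugar phosphate and pyruvate use, 7 genes of the oxygen-sensing machinery and 6 hypoxia response genes. Tregs are CD4 T cells that express Foxp3 and keep immune responses in check. They were sorted and profiled by RNA sequencing, in 2 libraries from skin and 3 from skin-draining lymph nodes. All 5 libraries came from mice of the Foxp3-DTR/GFP strain aged 13 days, in which the Foxp3 gene also carries a diphtheria toxin receptor and a green fluorescent protein. The labels name no toxin or other treatment. Neither the labels nor the design text state the sort markers, the cells per library or the animals behind it. The p-values therefore cover the spread among the 5 libraries only, and that spread may be technical.

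Glycolysis cleaves glucose to pyruvate in the cytosol and yields ATP without oxygen, and lactate dehydrogenase then reduces pyruvate to lactate. Activated T cells raise this pathway, while resting lymphocytes burn pyruvate mainly in mitochondria. The hypoxia-inducible factor HIF-1 is a dimer of HIF-1alpha, encoded by Hif1a, and ARNT. It binds the promoters of many glycolytic genes, and where oxygen is present prolyl hydroxylases mark HIF-1alpha for destruction through the VHL protein, so much of its control acts on the protein and is not seen in RNA.

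The skin libraries held 10787378 and 10468795 gene counts and the lymph node libraries 12305644 to 14595018, and 9192 to 9894 genes were detected in skin against 12173 to 12540 in lymph node. Levels are given in CPM, each count set against its library total after TMM scaling in edgeR, in the order of the library numbers. Foxp3 had 77.8 and 117 CPM in skin Tregs, against 89.4, 94.8 and 99.6 CPM in lymph node Tregs. The groups overlapped (log2 fold change 0.05, adjusted p = 0.954). Cd3e, a chain of the T cell receptor complex, had 1057 and 1230.5 CPM in skin, against 1999, 1798 and 2286 CPM in lymph node. Both skin values lay below all lymph node values, and the difference did not pass the threshold (adjusted p = 0.0545). Of the 9 Treg and T cell markers in the table, Ctla4 and Ikzf2 were called higher in skin (adjusted p = 0.0271 and 0.0484) and Lck lower (adjusted p = 0.0492), and Cd3d, Cd3g and Cd4 also lay below all lymph node values without passing. Transcripts of some other cell types were more frequent in skin and those of others less. Markers of macrophages, monocytes and dendritic cells summed to 6722 and 9478 CPM in skin, against 246, 224 and 622 CPM in lymph node. Of the 19 such markers in the table, 16 were above all lymph node libraries in both skin libraries, and Cd163, Cd14, Fcgr1, Cd209a, Clec10a and Sirpa were at 0 in all 3 lymph node libraries. Keratinocyte markers summed to 179 and 206 CPM in skin, against 13.7, 12.3 and 15.5 CPM in lymph node, with 4 of 10 above all lymph node libraries and Krt10 at 0 in skin. Fibroblast markers summed to 89.1 and 9.96 CPM in skin, against 1.19, 3.68 and 0.271 CPM in lymph node. The sums for endothelial cells, B cells, CD8 T and natural killer cells, melanocytes and mast cells were lower in both skin libraries than in any lymph node library, and those for red cells overlapped. Some of these sums rested on few genes. The endothelial sum was nearly all Pecam1, and Cdh5, Kdr and Cldn5 had no lymph node count. The melanocyte sum was nearly all Pmel and Kit, with Dct, Tyr and Tyrp1 at 0 in every library. Of the mast cell markers only Cpa3 had counts. Myeloid cells and keratinocytes also use glycolysis, and the part of these transcripts in the differences below was not tested. In bulk RNA of this kind, fewer cells of a type and less RNA per cell cannot be told apart.

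Transcripts of the glycolytic genes with the most counts stood higher in the skin libraries. The 17 enzymes from hexokinase to lactate dehydrogenase summed to 10783 and 9175 CPM in skin, against 3837, 3368 and 4152 CPM in lymph node. The skin libraries lay above the lymph node libraries without overlap, with means of 9979 ± 1137 and 3786 ± 394 CPM (SD, n = 2 and 3), a ratio of 2.64. Most of this sum came from Aldoa, Pkm and Ldha, which together had 7991 ± 839 CPM in skin and 2637 ± 339.5 CPM in lymph node, a ratio of 3.03. The other 33 genes of the set summed to 3226 ± 156 CPM in skin and 1779.6 ± 102 CPM in lymph node, a ratio of 1.81. Gapdh, Pgk1, Pgam1 and Eno1 added little to the sum of the 17 enzymes (means of 10.3, 13.1, 2.88 and 0.623 CPM in skin). Reads that also match copies of these genes elsewhere are left out of that sum.

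Of the 36 genes, 33 had enough counts to be tested, and Eno1, Epas1 and Vegfa did not. The test was edgeR's quasi-likelihood test, with p-values adjusted by Benjamini-Hochberg over 11437 genes and a threshold of 0.05. It called 7.70% of all tested genes in either direction, and among the members it called Aldoa, Tpi1, Pkm and Hif1a higher in skin. These 4 are 12.1% of the tested members, beside 2.40% of all tested genes called higher. Pfkfb4 alone was called lower, which is 3.03% of the members beside 5.30% of all tested genes. The remaining 28 did not pass, and 6 of them (Gpi1, Pfkl, Ldha, Egln1, Bnip3 and Bnip3l) had an unadjusted p under 0.05. With those called, 11 of the 33 tested members were under 0.05. Of all 11437 tested genes, 1155 were under 0.05 as higher and 2217 as lower, so the count of members in either direction was near the background. The median log2 fold change of the tested members was 1.26, beside -0.21 over all tested genes, with 24 positive and 9 negative values. Setting Pfkfb4, which had no skin count, at its bound left the median at 1.26. Among members whose average log2 CPM was at least 5, 4 of 18 were called higher and 0 lower. Of the 5735 genes at that level 4.17% were called higher and 2.72% lower (6.89% in either direction). The median was 1.13 beside 0.04. That average joins both groups. Members such as Hk2, Pfkm, Pfkfb3 and Egln1 reached it through their skin values, and Ldhb through its lymph node values. This subset is therefore not chosen apart from the difference and adds no separate support. Both skin libraries lay above all lymph node libraries for 13 tested members (39.4%, beside 16.8% of all tested genes) and below them for 3 (9.09%, beside 33.5%).

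These calls depend on all 3 lymph node libraries. Without any 1 of them, which leaves 2 libraries a group, edgeR called 0 members and 0 genes. In those fits 7 to 8 members had an unadjusted p under 0.05, beside 2361 to 2484 of all genes. Fits without a skin library hold 1 skin library, which is assumed to vary like the lymph node libraries. Their counts of calls therefore carry no information on the spread within skin. With all 5 libraries DESeq2 called 9 members higher and 1 lower, beside 1235 and 2027 of the 11437 genes. Without the low-count filter edgeR called Aldoa, Tpi1 and Pkm but neither Hif1a nor Pfkfb4, beside 136 genes higher and 179 lower.

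**Figure D1:**
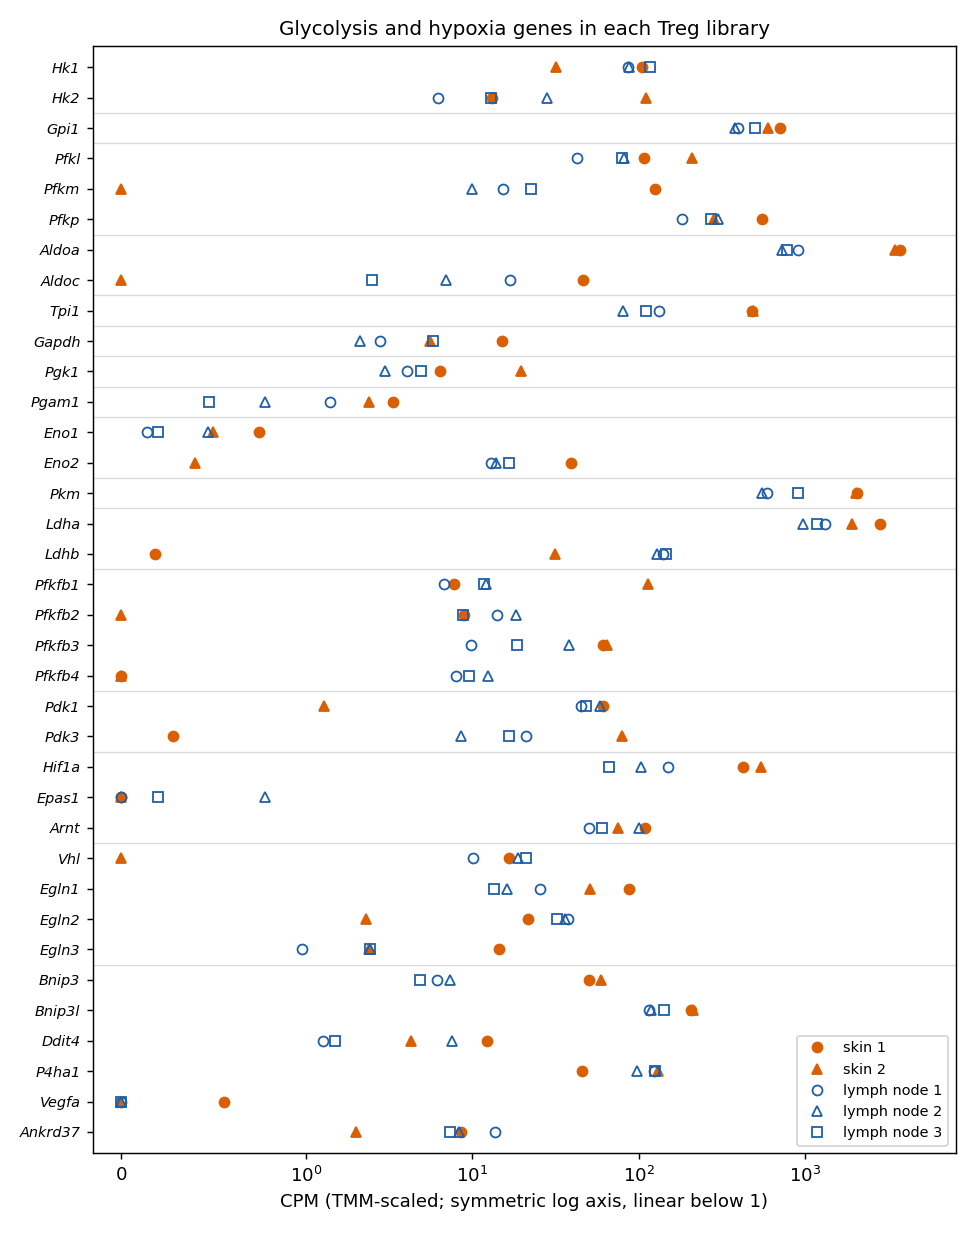
Level of each of the 36 genes (rows, in pathway order, with lines between steps) in each library, in TMM-scaled CPM on a symmetric log axis that is linear below 1. Filled orange symbols are the 2 skin libraries and open blue symbols the 3 lymph node libraries. Aldoa, Tpi1, Pkm, Hif1a and Bnip3 show both skin libraries right of all lymph node libraries, while genes such as Pfkm, Pdk1, Pdk3 and Ldhb are far apart between the skin libraries.

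The enzymes that bring glucose into the pathway did not pass the threshold described above. Hk1, the hexokinase of most tissues, had 105 and 31.7 CPM in skin, against 86.1, 87.0 and 116 CPM in lymph node, and the groups overlapped (log2 fold change -0.50, SE 0.60, adjusted p = 0.655). Hk2, the hexokinase that activation and hypoxia induce, had 13.1 and 109.9 CPM in skin, against 6.24, 28.2 and 12.9 CPM in lymph node. Skin library 2 held the highest value and skin library 1 lay among the lymph node libraries (log2 fold change 1.96, SE 1.13, adjusted p = 0.322). Gpi1, which turns glucose 6-phosphate into fructose 6-phosphate, had 708 and 602 CPM in skin, against 394, 380.0 and 497 CPM in lymph node. Both skin values exceeded the lymph node values, but the difference did not pass after adjustment (log2 fold change 0.63, SE 0.22, unadjusted p = 0.0298, adjusted p = 0.123).

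Phosphofructokinase, which commits sugar to glycolysis, is built from 3 isozymes. Pfkp, the platelet form, had 553 and 284 CPM in skin, against 182, 299 and 273 CPM in lymph node, and the groups overlapped (log2 fold change 0.74, adjusted p = 0.270). Pfkl, the liver form, had 107 and 208 CPM in skin, against 42.5, 81.1 and 79.7 CPM in lymph node. Both of its skin values exceeded the lymph node values and its difference was short of the threshold (log2 fold change 1.22, SE 0.48, unadjusted p = 0.0499, adjusted p = 0.169). Pfkm, the muscle form, had 1343 counts in skin library 1 and none in skin library 2, against 127 to 334 counts in the lymph node libraries (adjusted p = 0.618). Per kilobase of exon, Pfkp made up 43.5 and 40.5% of the family's counts in skin, against 55.3, 59.6 and 52.1% in lymph node, and Pfkl made up 16.9 and 59.5% in skin, against 26.0, 32.5 and 30.6% in lymph node. By these shares the skin libraries were close to each other in Pfkp and far apart in Pfkl, but the shares depend on the length used. By plain counts Pfkp made up 70.4 and 57.7% in skin, against 75.9, 76.6 and 72.7% in lymph node. Pfkl then made up 13.6 and 42.3% in skin, against 17.75, 20.8 and 21.2% in lymph node.

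Aldolase showed the smallest adjusted p of the set. Aldoa (chromosome 7, 126795234 to 126800751, minus strand, mm10), which splits fructose 1,6-bisphosphate into its triose phosphates, had 3696 and 3468 CPM in skin, against 901, 724 and 778 CPM in lymph node. The means were 3582 ± 161 and 801 ± 90.6 CPM (SD, n = 2 and 3), and Aldoa rose 4.47-fold in skin (log2 fold change 2.16, SE 0.17, adjusted p = 0.0209). Both skin libraries held about the same value, far above every lymph node library. Aldoart1 and Aldoart2, Aldoa-derived copies at other loci, were chosen after their values were seen. Aldoart1 had 83.4 and 82.0 CPM in skin, against 19.9, 16.4 and 18.8 CPM in lymph node. Aldoart2 had 23.1 and 25.1 CPM in skin, against 6.24, 4.85 and 6.51 CPM in lymph node. Aldoart1 had a log2 fold change of 2.17 (adjusted p = 0.0587) and Aldoart2 of 2.04 (adjusted p = 0.153), close to that of Aldoa but short of the threshold. Aldoc, the brain form, contributed 493 counts in skin library 1 and none in skin library 2, so Aldoa made up 98.9 to 100% of aldolase counts per kilobase in skin and 98.4 to 99.7% in lymph node.

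Tpi1 (chromosome 6, 124810586 to 124814296, minus strand), which interconverts the triose phosphates that aldolase releases, followed the same pattern. It had 476 and 483 CPM in skin, against 132, 80.7 and 111 CPM in lymph node. Tpi1 rose 4.45-fold (means 479.7 ± 4.602 and 108 ± 25.9 CPM, SD, n = 2 and 3; log2 fold change 2.15, SE 0.28, adjusted p = 0.0381). The skin libraries differed from each other by less than the lymph node libraries did.

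The next steps of the pathway were counted at very low levels. Gapdh, which oxidizes glyceraldehyde 3-phosphate, had 15.03 and 5.58 CPM in skin, against 2.80, 2.11 and 5.83 CPM in lymph node. Skin library 2 lay within the lymph node range (log2 fold change 1.52, SE 1.01, adjusted p = 0.389). Pgk1, phosphoglycerate kinase, had 6.44 and 19.7 CPM in skin, against 4.06, 2.97 and 4.95 CPM in lymph node (log2 fold change 1.71, SE 0.94, adjusted p = 0.2997). Pgam1, phosphoglycerate mutase, had 3.36 and 2.39 CPM in skin, against 1.40, 0.782 and 0.475 CPM in lymph node (log2 fold change 1.69, SE 0.98, adjusted p = 0.325). Both genes had skin values above all lymph node values. Eno1, the main enolase of most cells, had 8 and 5 counts in skin and 2 to 6 counts in lymph node and was not tested. These counts leave out reads that also match copies of the genes elsewhere. Reads that matched several places were not assigned to genes. Alignments that were not unique made up 64.5 to 65.4% of the table's total in skin and 66.7 to 72.0% in lymph node. Such alignments need not be 1 per read, so the share of reads is not known. Of the 50-base windows of the main Gapdh transcript, 82.1% occur without a mismatch in annotated transcripts of other loci, spread over 280 genes of which 269 are pseudogenes when up to 2 mismatches are allowed. The same share was 72.2% for Eno1, 68.0% for Pgk1, 46.9% for Bnip3 and 41.5% for Pgam1, and no member with a share over 40% exceeded 59.5 CPM in any library. Eno1b, the copy with the most windows in common with Eno1, had 25.3 and 29.8 CPM in skin, against 21.3, 10.9 and 12.5 CPM in lymph node (log2 fold change 0.89, adjusted p = 0.504). Among the members called higher, the share was 30.5% for Pkm, 13.9% for Aldoa, 7.51% for Tpi1 and 0 for Hif1a, and with up to 2 mismatches it was 64.0%, 57.9%, 31.1% and 0. How much of each gene's signal was lost was not measured.

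**Figure D2:**
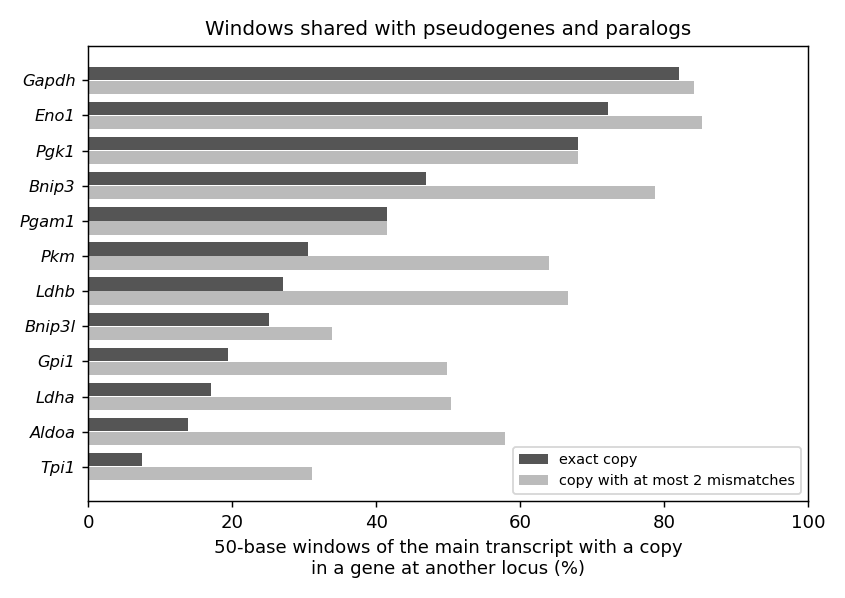
Percent of the 50-base windows of each gene's main transcript that also occur in an annotated transcript of another locus, without a mismatch (dark bars) or with at most 2 mismatches (light bars), for the 12 members with a share of 5% or more when mismatches are allowed. Gapdh, Eno1 and Pgk1 have over 65% of their windows copied exactly, whereas Tpi1 has 7.51%.

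Eno2, the neuronal enolase, had 417 counts in skin library 1 and 4 in skin library 2, against 177 to 246 counts in lymph node (log2 fold change 0.44, SE 1.58, adjusted p = 0.897). Pkm (chromosome 9, 59656368 to 59679375, plus strand), the pyruvate kinase that yields the last ATP of the pathway, had 2054 and 2012 CPM in skin, against 587, 552 and 900.4 CPM in lymph node. Pkm rose 2.99-fold, with means of 2033 ± 30.0 and 679.7 ± 192 CPM (SD, n = 2 and 3; log2 fold change 1.58, SE 0.26, adjusted p = 0.0452). The skin libraries were close together and the lymph node libraries spread more widely. The counts join the muscle-type splice forms of the gene, which differ in activity, so their balance was not measured here. Exons of another annotated gene cover 15.3% of its exon bases.

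Lactate dehydrogenase is a tetramer of the subunits of Ldha, which favor lactate formation, and of Ldhb, which favor pyruvate. Ldha (chromosome 7, 46841475 to 46855627, plus strand) had 2835 and 1918 CPM in skin, against 1315, 971 and 1184 CPM in lymph node. Both skin libraries exceeded every lymph node library, and the difference fell just short of the threshold (log2 fold change 1.04, SE 0.24, unadjusted p = 0.00620, adjusted p = 0.0557). It passed in 5 of 8 other settings that kept all libraries, and over those settings the adjusted p ranged from 0.00117 to 0.712. Ldhb had 0.187 and 31.3 CPM in skin, from 2 and 314 counts, against 140, 128 and 146 CPM in lymph node. Both skin values were below all lymph node values but far apart from each other, and the difference did not pass (log2 fold change -3.13, SE 1.71, adjusted p = 0.294). Per kilobase of exon, Ldha made up 99.99 and 96.7% of the lactate dehydrogenase counts in skin, against 81.7, 78.2 and 79.4% in lymph node. The shares did not overlap, but with 2 and 3 libraries the smallest two-sided p of an exact permutation test is 0.1.

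Sequence upstream of the genes is shown for those that rose and for Ldha, to let the HIF core motif be read in place. The windows are RefSeq promoter windows of 300 bases (GRCm38.p6) that span an annotated transcript start, and for genes with several starts a window with the most matches is given. They lie at chr7:126799205-126799504 (minus strand, Aldoa), chr6:124814109-124814408 (minus strand, Tpi1), chr9:59656977-59657276 (plus strand, Pkm), chr12:73907617-73907916 (plus strand, Hif1a) and chr7:46845554-46845853 (plus strand, Ldha). Each is written 5′ to 3′ along its gene, and capitals mark ACGTG or GCGTG, the core of the hypoxia response element, on either strand, where CACGT and CACGC are the same cores on the opposite strand.
Aldoa: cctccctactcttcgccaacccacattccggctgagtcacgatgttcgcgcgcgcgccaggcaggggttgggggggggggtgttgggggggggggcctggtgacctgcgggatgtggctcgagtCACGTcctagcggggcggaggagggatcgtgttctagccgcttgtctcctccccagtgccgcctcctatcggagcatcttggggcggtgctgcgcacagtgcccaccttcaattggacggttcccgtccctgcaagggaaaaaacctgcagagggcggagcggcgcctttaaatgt
Tpi1: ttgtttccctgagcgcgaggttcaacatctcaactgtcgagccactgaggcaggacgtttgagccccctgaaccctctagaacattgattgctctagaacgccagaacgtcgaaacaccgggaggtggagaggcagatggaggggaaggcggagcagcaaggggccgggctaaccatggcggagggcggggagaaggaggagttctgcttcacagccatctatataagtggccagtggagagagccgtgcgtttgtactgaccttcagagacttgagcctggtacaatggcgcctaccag
Pkm: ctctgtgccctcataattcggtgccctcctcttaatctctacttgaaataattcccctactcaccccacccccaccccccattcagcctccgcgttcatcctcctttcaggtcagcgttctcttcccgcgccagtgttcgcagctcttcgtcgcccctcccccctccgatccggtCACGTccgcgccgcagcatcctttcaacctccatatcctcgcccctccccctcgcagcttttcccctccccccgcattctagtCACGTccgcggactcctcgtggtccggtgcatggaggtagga
Hif1a: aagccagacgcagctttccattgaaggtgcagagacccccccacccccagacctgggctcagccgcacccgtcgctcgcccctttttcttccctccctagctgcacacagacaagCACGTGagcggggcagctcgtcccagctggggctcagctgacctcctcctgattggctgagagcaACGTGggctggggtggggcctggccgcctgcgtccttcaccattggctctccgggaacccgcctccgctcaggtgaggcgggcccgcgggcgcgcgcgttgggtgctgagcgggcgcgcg
Ldha: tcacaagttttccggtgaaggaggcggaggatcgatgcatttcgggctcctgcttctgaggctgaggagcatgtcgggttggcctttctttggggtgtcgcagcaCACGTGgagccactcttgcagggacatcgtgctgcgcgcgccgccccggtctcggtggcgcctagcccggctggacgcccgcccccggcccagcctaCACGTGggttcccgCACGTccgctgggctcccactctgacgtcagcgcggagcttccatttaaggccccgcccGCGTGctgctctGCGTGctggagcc
The window of Ldha holds 7 matches, 5 of ACGTG and 2 of GCGTG. That of Hif1a holds 3 matches, that of Pkm 2 and that of Aldoa 1, and that of Tpi1 holds none. A palindromic CACGTG, also the site of MYC, counts as 2 matches. A match is a description of these letters and not a bound site. At least 1 window with either core was found for 30 of the 34 members with a window (88.2%), beside 67.7% of the 8696 tested genes and 46.7% of all 27025 genes with a window in the RefSeq table. Counted by windows, either core was present in 75.9% of the 54 windows of members and in 43.8% of all 32851 windows. ACGTG was found in 64.7% of these members and 29.6% of those tested genes, and GCGTG in 70.6% of members and 56.2% of tested genes. No test was made of these shares. The members were listed as glycolysis and hypoxia response genes, known HIF targets among them, so a higher share may follow from that choice. Members also had more windows per gene (54 over 34, beside 32851 over 27025), which raises a share counted over any window.

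The bifunctional enzymes that make and degrade fructose 2,6-bisphosphate, the strongest activator of phosphofructokinase, did not share a pattern. Pfkfb4 (chromosome 9, 108991778 to 109032228, plus strand) had no count in either skin library, against 7.99, 12.4 and 9.63 CPM in lymph node, from 114, 159 and 142 counts. A count of 0 over both skin libraries allows up to 3 counts, or 0.145 CPM, so Pfkfb4 was at least 68.6-fold lower in skin counts (adjusted p = 0.0482). This floor covers counting error only, since PCR copies are not independent molecules. Of all tested genes 33.5% had both skin values below the lymph node values, and 2 members, Pfkfb4 and Epas1, had no count in either skin library. Pfkfb3, the form that most favors the kinase reaction, had 61.4 and 64.5 CPM in skin, against 9.81, 37.9 and 18.6 CPM in lymph node. Its skin values agreed within 1.05-fold and lay above all lymph node values (log2 fold change 1.51, SE 0.76, adjusted p = 0.257). Pfkfb1, the liver and muscle form, had 7.75 and 114 CPM in skin, against 6.73, 12.04 and 11.8 CPM in lymph node (adjusted p = 0.218). Pfkfb2, the heart form, had 96 counts in skin library 1 and none in skin library 2, against 130 to 234 counts in lymph node.

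The kinases Pdk1 and Pdk3, which switch off pyruvate dehydrogenase and so hold pyruvate back from mitochondria, went opposite ways in the skin libraries. Pdk1, a known HIF target, had 61.4 and 1.30 CPM in skin, against 44.9, 58.7 and 48.4 CPM in lymph node (log2 fold change -0.69, SE 1.39, adjusted p = 0.806). Pdk3 had 0.280 and 79.8 CPM in skin, against 21.1, 8.53 and 16.6 CPM in lymph node (log2 fold change 1.38, SE 1.76, adjusted p = 0.677). Pdk1 thus made up 98.6% of the Pdk1 and Pdk3 counts per kilobase in skin library 1 and 0.531% in skin library 2, with lymph node libraries between 41.2 and 69.4%.

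Across the set, the skin libraries differed more than 4-fold for 13 of the 33 tested members (39.4%, beside 37.0% of all tested genes), and the lymph node libraries for 3 members (9.09%, beside 15.05% of all tested genes). Skin library 1 was the higher of the pair for 9 of the 13 and skin library 2 for 4. No count was found for 2 members in skin library 1 and for 7 in skin library 2. None of the 5 members with at least 200 CPM on average in lymph node (Aldoa, Ldha, Pkm, Gpi1 and Pfkp) differed more than 2-fold between the skin libraries, with ratios of 1.02 to 1.95. All 13 that differed more than 4-fold were among the 28 below that level, and the rest of those 28, such as Tpi1, Bnip3l and Pfkfb3, were within 4-fold. Over all tested genes the shares differing more than 4-fold were 9.17% above and 39.7% below the level, which was chosen after the values were seen.

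**Figure D3:**
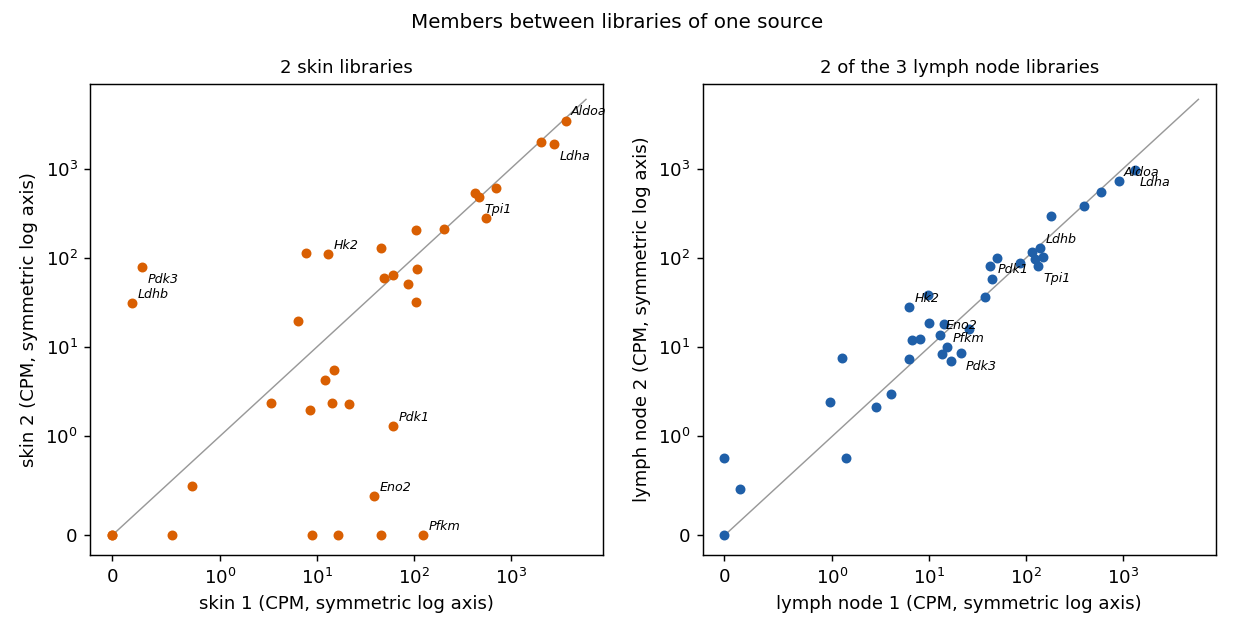
Level of each member in one library against another of the same source, in CPM on symmetric log axes, for the 2 skin libraries (left) and lymph node libraries 1 and 2 (right), with the line of equal values. Aldoa, Ldha and Tpi1 lie near the line in both panels, while Pdk3, Ldhb, Pdk1, Eno2 and Pfkm lie far from it in skin.

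Of the HIF subunits, Hif1a stood out. Hif1a (chromosome 12, 73901375 to 73947530, plus strand), the oxygen-regulated subunit, had 426 and 540.2 CPM in skin, against 150.1, 104 and 66.4 CPM in lymph node. Hif1a rose 4.53-fold, with means of 483 ± 81.0 and 107 ± 42.0 CPM (SD, n = 2 and 3; log2 fold change 2.18, SE 0.39, adjusted p = 0.0463). Both skin values exceeded every lymph node value. The summed myeloid markers were 22.2-fold higher in skin by group means, and their part in the Hif1a difference was not tested. Exons of other genes cover 8.11% of its exon bases, and whether the counting used strand is not stated in these sources. Arnt, its constant partner, had 108 and 74.8 CPM in skin, against 50.5, 99.9 and 59.99 CPM in lymph node, with overlapping groups (log2 fold change 0.39, SE 0.48, adjusted p = 0.668). Epas1, which encodes HIF-2alpha, had no skin count and 0, 10 and 3 counts in lymph node and was not tested. Hif1a therefore made up 100% of the counts per kilobase of these alpha subunits in skin and 99.2 to 100% in lymph node.

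The prolyl hydroxylases that sense oxygen did not pass the threshold, but their shares lay apart between the groups. Egln1 (PHD2), the main hydroxylase of HIF-1alpha and itself a HIF target, had 87.1 and 50.7 CPM in skin, against 25.6, 16.1 and 13.4 CPM in lymph node. Both skin values exceeded every lymph node value, and the difference did not pass after adjustment (log2 fold change 1.91, SE 0.64, unadjusted p = 0.0283, adjusted p = 0.118). Egln2 (PHD1) had 21.7 and 2.29 CPM in skin, against 37.6, 36.1 and 32.1 CPM in lymph node, below all of them (log2 fold change -1.56, SE 1.10, adjusted p = 0.423). Egln3 (PHD3) had 14.5 and 2.39 CPM in skin, against 0.981, 2.42 and 2.44 CPM in lymph node, and the groups overlapped (adjusted p = 0.294). Per kilobase, Egln1 made up 64.8 and 89.2% of the hydroxylase counts in skin, against 34.1, 24.5 and 23.2% in lymph node, and Egln2 made up 20.7 and 5.17% in skin, against 64.2, 70.5 and 71.2% in lymph node. Neither share overlapped between the groups, within the same limit of the permutation test. Vhl, the ubiquitin ligase subunit that recognizes hydroxylated HIF, had 177 counts in skin library 1 and none in skin library 2, against 144 to 312 counts in lymph node (adjusted p = 0.806).

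**Figure D4:**
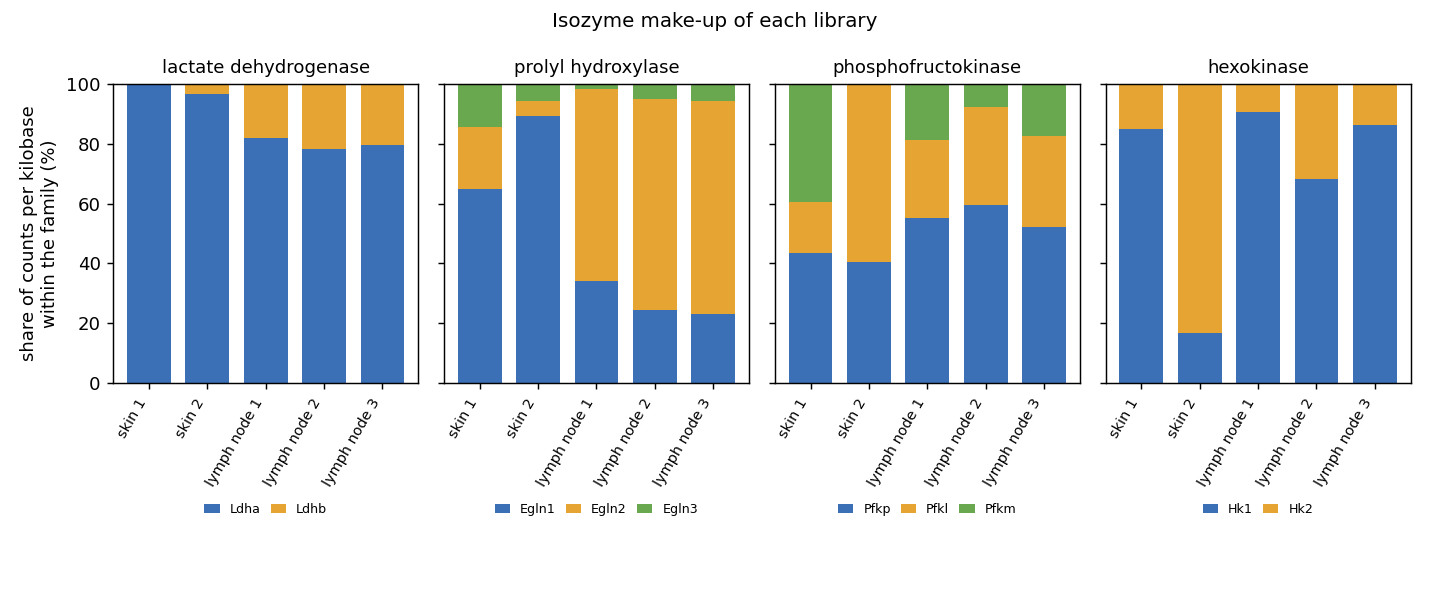
Share of each isozyme in the counts per kilobase of its family, in percent, for skin libraries 1 and 2 (left bars of each panel) and lymph node libraries 1 to 3. Ldha and Egln1 take a larger share in both skin libraries than in any lymph node library, while the shares of Hk1 and Pfkm differ widely between the skin libraries.

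Of the hypoxia response genes, the mitophagy receptors had both skin libraries above lymph node. Bnip3 (chromosome 7, 138890836 to 138909519, minus strand) had 49.96 and 59.5 CPM in skin, against 6.17, 7.35 and 4.88 CPM in lymph node. Its ratio of 8.91 was the largest of the members with skin values above all lymph node values, yet it was just short of the threshold (log2 fold change 3.16, SE 0.68, unadjusted p = 0.00460, adjusted p = 0.0523). Bnip3 passed in 4 of 8 other settings with all libraries, where its adjusted p ranged from 1.20e-10 to 0.729, and 22.3% of its exon bases overlap exons of other genes. Bnip3l (NIX) had 207 and 213 CPM in skin, against 116, 118 and 141 CPM in lymph node (log2 fold change 0.75, SE 0.26, unadjusted p = 0.0294, adjusted p = 0.121). Ddit4 (REDD1), a stress-induced inhibitor of mTORC1, had 12.2 and 4.28 CPM in skin, against 1.26, 7.59 and 1.49 CPM in lymph node, with overlapping groups (adjusted p = 0.571). P4ha1, a collagen prolyl hydroxylase, had 45.9 and 131 CPM in skin, against 123, 97.8 and 125 CPM in lymph node (log2 fold change -0.38, adjusted p = 0.7002). Ankrd37, a small HIF target, had 8.59 and 1.99 CPM in skin, against 13.7, 8.29 and 7.39 CPM in lymph node (adjusted p = 0.652). Vegfa, the classical angiogenic HIF target, had 6 counts in skin library 1 and none elsewhere, so it was not detectable at this depth in 4 of the 5 libraries.

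**Figure D5:**
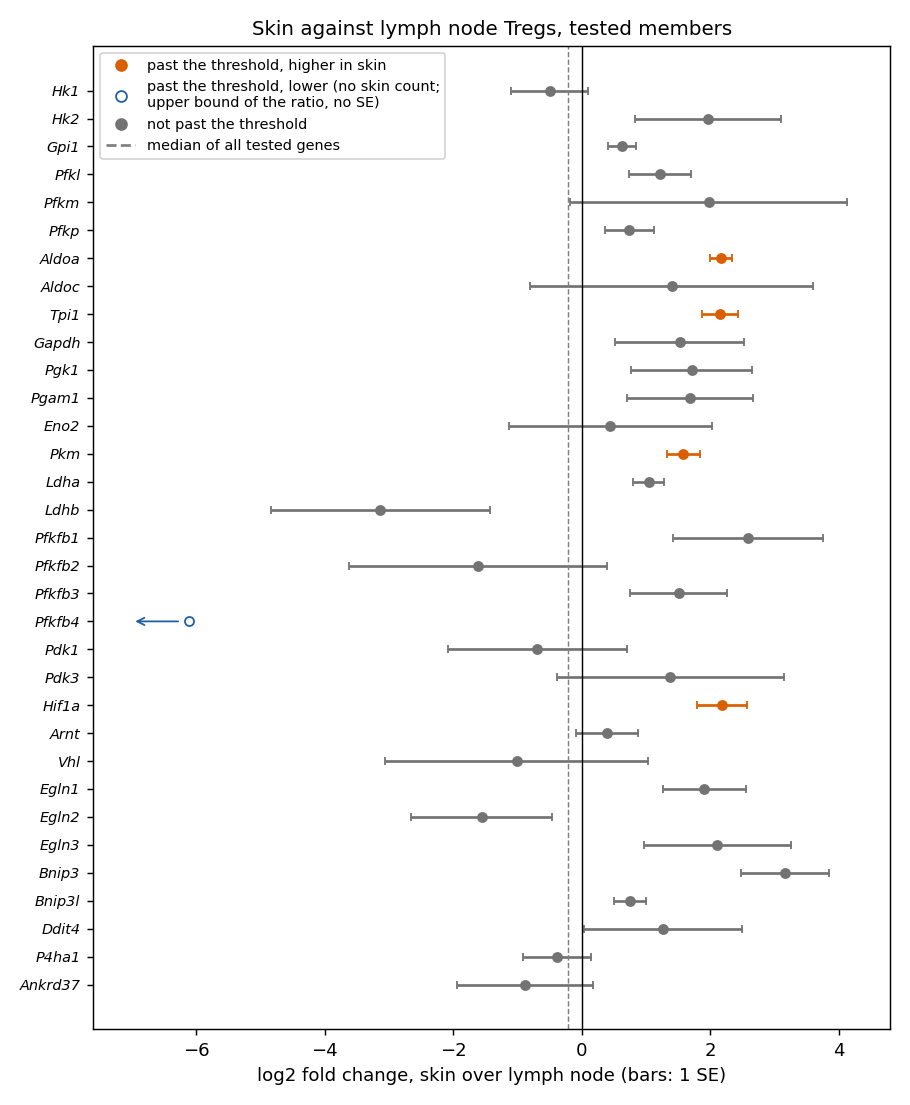
Log2 fold change of skin over lymph node Tregs for the 33 tested members, with bars of 1 SE, in pathway order. Orange points passed the threshold as higher in skin, grey points did not pass, and the open blue point with an arrow marks Pfkfb4, drawn at the bound set by 3 counts. The dashed line is the median of all tested genes, -0.21, and most members lie to its right.

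Levels of different members were compared per kilobase of exon. These levels leave out reads that also match copies elsewhere. Genes with many copied windows, such as Gapdh, Eno1, Pgk1 and Pgam1, may therefore stand too low in the order. In skin the order began with Aldoa (1230.4 ± 55.4 CPM per kilobase, SD, n = 2), Ldha (718 ± 196), Pkm (406 ± 5.999), Tpi1 (174 ± 1.67), Gpi1 (101 ± 11.7), Hif1a (81.9 ± 13.7) and Bnip3l (54.4 ± 0.991). In lymph node the order was Ldha (349 ± 52.4 CPM per kilobase, SD, n = 3), Aldoa (275 ± 31.1), Pkm (136 ± 38.4), Ldhb (87.9 ± 5.64), Gpi1 (65.7 ± 9.96), Tpi1 (39.2 ± 9.41) and Bnip3l (32.3 ± 3.64). Aldoa thus stood above Ldha in skin and below it in lymph node. Ldhb had 10.02 ± 14.01 CPM per kilobase in skin and 87.9 ± 5.64 in lymph node, and Bnip3 had 24.2 ± 2.97 in skin and 2.71 ± 0.546 in lymph node (SD, n = 2 and 3). Divided by the longest transcript instead, Gpi1 stood above Ldhb in lymph node (133 and 106 CPM per kilobase). Ldha and Aldoa in lymph node differed by more than the SD of either, Tpi1 and Bnip3l did not, and no test of the order was made.

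Over 7 lists of related genes with 106 entries, 85 were tested, and edgeR called 2 higher, 3 lower and 80 neither, with a median log2 fold change of 0.24. Over all tested genes the shares called were 2.40% higher and 5.30% lower, so these counts were near the background. Over the same lists DESeq2 called 9 higher and 10 lower and limma-voom 6 higher and 4 lower. These tools also called more of all 11437 tested genes than edgeR did. DESeq2 called 1235 higher and 2027 lower, and limma-voom 566 higher and 1665 lower. Among other glycolytic isozymes and side enzymes, 1 of 7 tested genes passed. Eno3, the muscle enolase, had 62.7 and 26.5 CPM in skin, against 261, 219.5 and 306 CPM in lymph node, and fell in skin (log2 fold change -2.55, SE 0.48, adjusted p = 0.0477). None of the 7 pentose phosphate genes passed in edgeR, where 0 had an unadjusted p under 0.05, while DESeq2 called 1 higher. Rpe had a log2 fold change of 0.66 (adjusted p = 0.186) and Pgls of 1.55 (adjusted p = 0.335). Of 11 tested genes of pyruvate entry into mitochondria, edgeR called 0, with 1 at an unadjusted p under 0.05, and DESeq2 and limma-voom each called 1 lower. Pdha1, the catalytic subunit of pyruvate dehydrogenase, had 210.0 and 83.4 CPM in skin, against 379.8, 411 and 373 CPM in lymph node (log2 fold change -1.40, SE 0.43, adjusted p = 0.0961). Pdhx, a structural subunit of the same complex, had a log2 fold change of 0.67 (adjusted p = 0.457).

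The 6 glucose and lactate transporters had a median log2 fold change of 1.28, and edgeR called 0, with 1 at an unadjusted p under 0.05, while DESeq2 called 2 higher. Slc16a3 (MCT4), a lactate exporter, had 9.71 and 135.7 CPM in skin, against 6.38, 4.77 and 13.2 CPM in lymph node (log2 fold change 3.16, SE 1.21, adjusted p = 0.155). Bsg (basigin), the chaperone of such exporters, had 84.3 and 56.0 CPM in skin, against 11.5, 36.7 and 17.9 CPM in lymph node (adjusted p = 0.202). Of 13 tested genes of the remaining HIF machinery edgeR called 0, with 1 at an unadjusted p under 0.05, while DESeq2 and limma-voom each called 1 higher. Arnt2, a relative of Arnt, had 151 and 54.5 CPM in skin, against 0.210, 3.28 and 0 CPM in lymph node (adjusted p = 0.105), and Hif1an, which blocks HIF by hydroxylating an asparagine, had 16.8 and 0.797 CPM in skin, against 32.9, 67.0 and 46.0 CPM in lymph node (adjusted p = 0.3002).

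Among 26 tested genes listed as further HIF targets, edgeR called 1 higher, 2 lower and 23 neither, with 8 at an unadjusted p under 0.05, while DESeq2 called 3 higher and 5 lower and limma-voom 3 higher and 2 lower. Gys1, glycogen synthase, had 97.5 and 164 CPM in skin, against 22.1, 20.6 and 27.5 CPM in lymph node, and rose (log2 fold change 2.48, SE 0.47, adjusted p = 0.0478). Car12, a carbonic anhydrase, and Plod1, a collagen lysyl hydroxylase, had no count in either skin library. Car12 had 12.1, 12.8 and 14.3 CPM in lymph node and was at least 90.48-fold lower in skin (adjusted p = 0.0463). Plod1 had 18.4, 6.96 and 34.6 CPM in lymph node and fell in skin, where a count of 0 allows up to 0.145 CPM (adjusted p = 0.0496). Of 15 tested regulators of T cell glycolysis, edgeR called 1 higher (Rptor), 0 lower and 14 neither, with 3 at an unadjusted p under 0.05. The median log2 fold change of these regulators was 0.31, and 9 had a positive value. DESeq2 called 2 higher and 2 lower, and limma-voom 2 higher and 0 lower. Rptor, the raptor subunit of mTORC1, had 177 and 183 CPM in skin, against 37.9, 40.8 and 37.6 CPM in lymph node, and rose (log2 fold change 2.22, SE 0.32, adjusted p = 0.0411).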

How the data were processed

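Per the labels' protocols, cDNA of the sorted Tregs was made by the SMARTer Ultra Low Input method, a PCR-based amplification. The tools named are HTSeq 0.6.1, TopHat2 2.0.12 with Bowtie2 2.1.0.0, CASAVA 1.8.2 and SAMtools 0.1.19.0, on build mm10, per the submitters' processing notes. Their options, including strand, are not given in the sources that were used here. The authors deposited raw counts per gene symbol, with no normalization. The header is shifted by 1 cell and was read so, and 5 HTSeq summary rows were kept out of the library sizes and the tests.

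Genes were filtered with filterByExpr (minimum count 10) and scaled by TMM. They were tested by edgeR 4.0.16 (R 4.3.3) with the quasi-likelihood F test, skin against lymph node, without a replicate block, over 11437 genes. The fit was also run on simulated data, and its recovery and false calls there are not reported here. The common dispersion was 0.843. The SE is the log2 fold change divided by the square root of F. Alternatives used DESeq2 1.42.0, limma 3.58.1 voom, other scalings and filters, GC and length offsets (values for 99.4% of genes), a replicate block and each library left out. Coordinates, exon lengths and transcripts come from GENCODE M21 (GRCm38, mm10) and promoters from RefSeq, and all 36 members matched by symbol in GENCODE. No genome sequence was used here, so copies were sought with BLAST+ among annotated transcripts of other loci. The rule for named genes covers all members, and in each list those past the threshold or, where none passed, the 2 with the smallest p. Aldoart1, Aldoart2 and Eno1b fall outside it. The members and lists were chosen with earlier results of these data known.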

Additional observations from a re-analysis of the deposited data

How the results depend on the processing

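The counts of calls moved with the processing, and the direction of some members moved with the skin library left out. With all 5 libraries, members called higher and lower numbered 5 and 1 with RLE scaling, 4 and 1 with upper quartile scaling, 3 and 0 without a low-count filter, 6 and 1 with a stricter filter, 9 and 1 with DESeq2, 6 and 1 with limma-voom and 6 and 1 with GC and length offsets. Over all genes, the calls numbered 302 higher and 610 lower with RLE scaling and 230 and 646 with upper quartile scaling. They numbered 136 and 179 without a filter, 419 and 972 with the stricter filter and 1235 and 2027 with DESeq2. With limma-voom they numbered 566 and 1665, and with GC and length offsets 322 and 726. With the replicate number as a block, edgeR called 0 members in either direction (5 at an unadjusted p under 0.05), and 11 genes higher and 10 lower. The labels do not pair the libraries. Deviations from the group mean had r = -0.027 and -0.024 for same-numbered libraries, beside -0.004 to 0.027 for other pairs. With 2 skin libraries the deviations of 1 mirror those of the other, so the other pairs are not a separate comparison. These values therefore cannot decide whether same-numbered libraries share animals or a batch. Leaving out 1 library at a time gave 0 to 12 members higher and 0 to 10 lower, and 0 to 2110 genes higher and 0 to 3955 lower, with 0 whenever a lymph node library was left out (2361 to 2484 genes at an unadjusted p under 0.05). In these fits the log2 fold change ranged from 2.101 to 2.25 for Aldoa, 1.99 to 2.33 for Tpi1, 1.45 to 1.84 for Pkm and 1.93 to 2.51 for Hif1a. Without skin library 2, direction was reversed for Hk1 (-1.61 to 0.11), Hk2 (-0.28 to 2.79) and Pdk1 (-5.28 to 0.27). Without skin library 1 it was reversed for P4ha1 (-1.33 to 0.18). Direction also turned to lower in skin for Pfkm, Aldoc and Eno2 without skin library 1, and for Pdk3 without skin library 2. Fold changes of some members were not followed over these fits, so this list may be incomplete. Aldoa, Tpi1 and Pkm passed in all of these 8 settings with all libraries other than the block, and Hif1a and Pfkfb4 in all other than the block and the fit without a filter. The median log2 fold change of all tested genes was -0.21 with TMM, -0.17 with RLE and DESeq2, -0.37 with upper quartile scaling, -0.46 without a filter, -0.11 with the stricter filter, -0.25 with offsets, -0.85 with limma-voom and -0.86 with the block. Levels per kilobase were larger when divided by the longest transcript, with 2312 for Aldoa, 1309 for Ldha and 836 for Pkm in skin, and the order of Gpi1 and Ldhb in lymph node turned round. The causes were not tested.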
